A study of Homo sapiens with 8 samples.

Results

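Estrogen and androgen levels inside a breast cancer cell depend on enzymes that make, activate, inactivate and clear steroids. Here 9 genes of this kind were followed in T47D cells, an established luminal breast cancer line that carries the estrogen receptor. None has a symbol of the 17β-hydroxysteroid dehydrogenase (HSD17B) genes. The 9 genes are CYP19A1, STS, SULT1E1, CYP1A1, CYP1B1, SRD5A1, SRD5A3, AKR1C3 and UGT2B28. The genes were chosen by function, and each was read from the probe set with exactly 1 gene symbol that had the highest mean over the 8 arrays. Of the 9 genes, 8 had such a probe set among 18417 genes measured in this way. SRD5A3, an enzyme best known for dolichol synthesis, was not matched to a probe set in the annotation table and was not analysed here.

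In the textbook scheme, aromatase (CYP19A1) turns androgens into estrogens, and steroid sulfatase (STS) frees estrone and dehydroepiandrosterone from their circulating sulfates. Estrogen sulfotransferase (SULT1E1) does the reverse for estrogens, while CYP1A1 and CYP1B1 hydroxylate them to catechol estrogens and are classic targets of the aryl hydrocarbon receptor. On the androgen side, SRD5A1 reduces testosterone to dihydrotestosterone, AKR1C3 reduces androstenedione to testosterone, and UGT2B28 conjugates androgens with glucuronic acid for export.

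The study had 4 groups of 2 Affymetrix Human Gene 1.0 ST arrays, all of T47D cells in charcoal-treated, steroid-poor medium. Cells received 200 nM of scrambled control siRNA or of 3 mixed siRNAs that target HSD17B1. This gene encodes 17β-HSD1, which makes estradiol from estrone. At 48 h fresh medium with 1 nM estradiol (E2) or with ethanol vehicle was given for 2 days. The design asks how lowering 17β-HSD1 and adding E2 each alter gene expression. Each siRNA was thus combined with each medium, which gives 2 control siRNA groups (vehicle and E2) and 2 groups with 17β-HSD1 siRNA (vehicle and E2). The 2 replicates of each group came from 2 culture experiments, and the replicate number in the labels was taken as the experiment. The model is a single cell line in culture, and the knockdown is transient. In such bulk RNA, fewer expressing cells and less RNA per cell cannot be told apart.

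All 11 luminal markers (among them ESR1, GATA3, FOXA1 and KRT8) lay above the background threshold described next, and all 4 markers of steroid-making cells (STAR, CYP11A1, CYP17A1 and NR5A1) lay below it. Of the markers of other cells, 3 of 6 basal, 3 of 8 fibroblast, 1 of 6 endothelial, 1 of 7 immune and 3 of 6 hepatocyte genes were above it. HSD17B1, the siRNA target, had replicate 1 log2 signals of 9.35 and 9.12 with control siRNA (vehicle, E2) and 8.41 and 8.32 after knockdown. In replicate 2 its signals were 8.66 and 8.56 with control siRNA and 8.36 and 8.37 after knockdown, a smaller difference than in replicate 1. Its averaged change was -0.56 ± 0.16 (SE, 4 arrays against 4; limma adjusted p = 0.221), so the knockdown itself did not pass the threshold at the RNA level.

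Signal is given on the log2 scale of the deposited table, where a difference of 1 is a doubling. The files hold no detection call, so 341 olfactory receptor genes, which breast cells are not known to express, served as a yardstick. A gene was called near background where its mean over the 8 arrays was below 7.15, the 95th percentile of their means, as were 37.7% of all genes. By this rule 4 of the 8 genes were near background (CYP19A1, SULT1E1, AKR1C3 and UGT2B28) and 4 were not (STS, CYP1A1, CYP1B1 and SRD5A1). Probe sets differ in brightness, so signals of different genes were not ranked against each other.

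**Figure D1:**
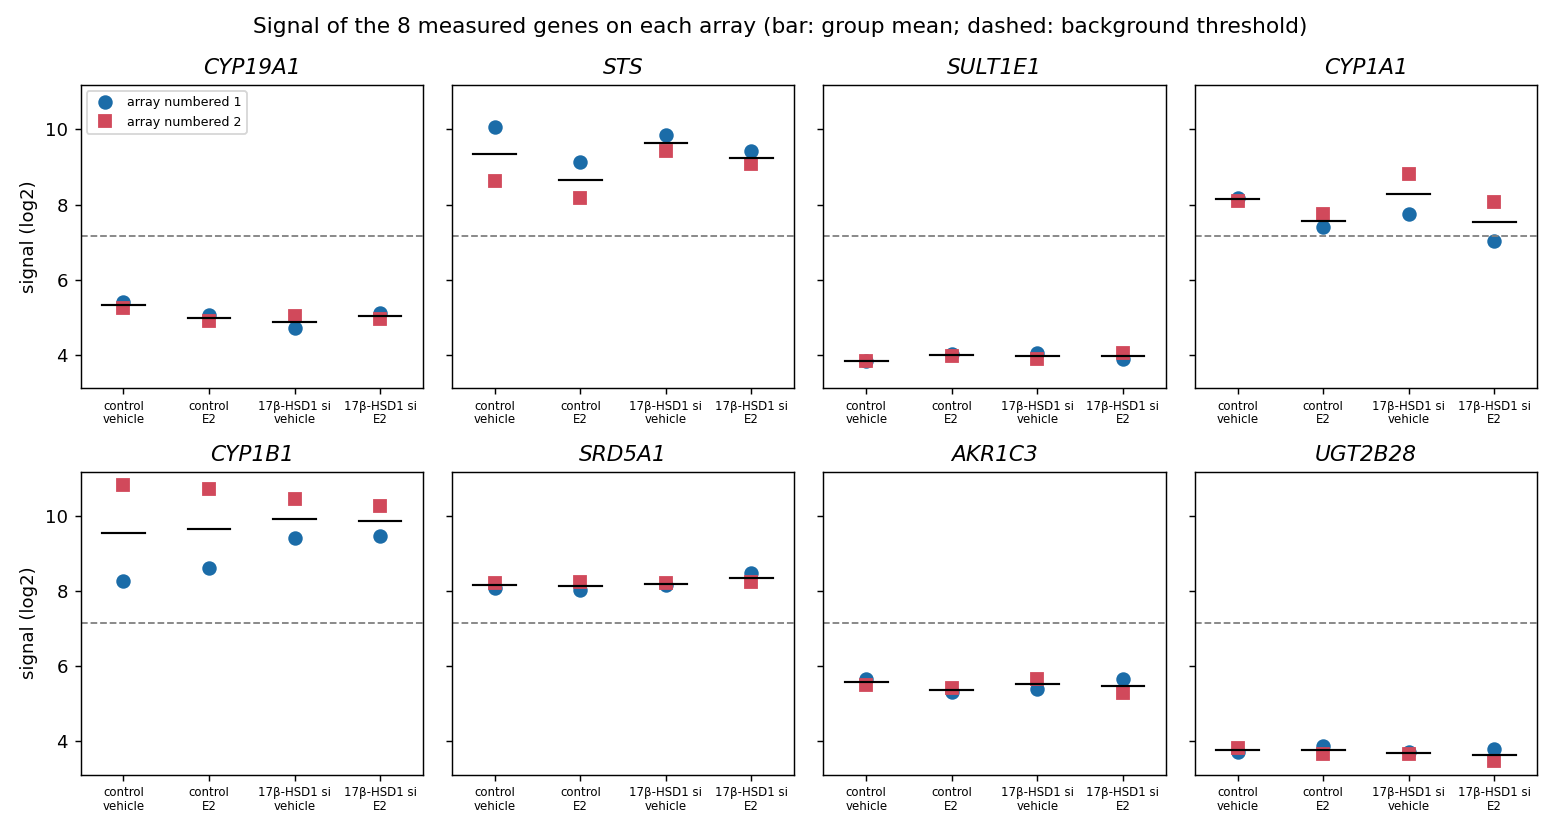
Log2 signal of the 8 measured genes on each of the 8 arrays, by group, with circles for replicate 1, squares for replicate 2, a bar for the group mean and a dashed line at the background threshold of 7.15. CYP1B1 and STS separate by replicate number in every group, while SRD5A1 and the 4 near-background genes stay within a narrow band.

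A pair of promoter windows is shown, because of the 4 genes above the threshold CYP1A1 had the largest averaged E2 difference and SRD5A1 the smallest spread over the arrays. Each is the 250 bases before the RefSeq start, written 5′ to 3′ on the gene's strand (GRCh38.p14). Capitals mark GCGTG on either strand (CACGC on the strand shown), the core bound by the aryl hydrocarbon receptor with ARNT. CYP1A1 lies at chr15:74725529-74725778 on the minus strand and SRD5A1 at chr5:6633190-6633439 on the plus strand.
CYP1A1: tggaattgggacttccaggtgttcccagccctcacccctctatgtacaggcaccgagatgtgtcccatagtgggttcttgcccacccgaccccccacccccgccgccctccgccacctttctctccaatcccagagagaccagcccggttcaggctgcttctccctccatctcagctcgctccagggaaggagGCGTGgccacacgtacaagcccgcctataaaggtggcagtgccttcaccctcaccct
SRD5A1: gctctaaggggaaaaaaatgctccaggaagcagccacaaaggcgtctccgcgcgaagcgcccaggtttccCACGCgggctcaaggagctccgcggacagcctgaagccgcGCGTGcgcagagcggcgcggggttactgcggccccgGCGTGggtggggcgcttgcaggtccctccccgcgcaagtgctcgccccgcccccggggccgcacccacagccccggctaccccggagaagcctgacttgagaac
CYP1A1 held GCGTG once, from 57 to 53 bases before the start, with a TATAAA box from 32 to 27 bases before it. SRD5A1 held GCGTG 3 times and no TATAAA. Of all 35114 promoter windows of this length, 32.2% held GCGTG and 10.7% held TATAAA, counted on both strands. The full palindromic estrogen response element (GGTCA and TGACC with any 3 bases between them) was found in 0.0399% of windows. Of the 9 genes, 7 (SRD5A3 among them) had windows, 18 in all. CYP1B1 and UGT2B28 had none, so their promoters were not searched. GCGTG was found in windows of 3 of the 7: CYP1A1, SRD5A1 and STS (2 of its 5 windows). The response element was found in 0 of the 18 windows. A match or its lack describes only the letters in these windows.

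E2, averaged over both siRNAs, gave its largest differences in CYP1A1 and STS, and both were lower with E2. No gene's 4 E2 arrays lay all above or all below its 4 vehicle arrays, as was so for 2.94% and 1.99% of all probe sets. Neither difference passed the threshold, an adjusted p below 0.05 by limma over the 21214 probe sets with a symbol. None of the 8 genes was called, against 1.55% of all probe sets. In this fit, which leaves the replicate number out, 1 gene (CYP1A1) had an unadjusted p below 0.05, as did 8.89% of all probe sets. The median averaged E2 change of the 8 genes was -0.06, against -0.02 over all genes.

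CYP1A1, which converts estradiol to catechol estrogens, had signals of 8.18 and 8.10 with control siRNA and vehicle (replicates 1 and 2) and 7.41 and 7.74 with control siRNA and E2. With 17β-HSD1 siRNA the vehicle arrays read 7.75 and 8.82, and the E2 arrays 7.02 and 8.08. The E2 array was lower than the vehicle array in each of the 4 pairs that share siRNA and replicate number, as was so for 11.7% of all probe sets (11.2% were higher in all 4). The pair differences were -0.78, -0.36, -0.74 and -0.74. Taken as 4 arrays against 4, however, the E2 and vehicle arrays overlapped, because replicate 2 ran higher in the knockdown groups. The averaged E2 change was -0.65 ± 0.25 (SE, 4 arrays against 4), or 0.635-fold (limma adjusted p = 0.396). The 95% interval, not adjusted for the number of probe sets, ran from -1.20 to -0.11. With the replicate number as a block the SE was 0.18 (limma unadjusted p = 0.00335, adjusted p = 0.100). The change was -0.39 without 17β-HSD1 siRNA, vehicle replicate 2 or without 17β-HSD1 siRNA, E2 replicate 1, and with each other array left out it lay between -0.92 and -0.57. Group means fell in the order 17β-HSD1 siRNA vehicle (8.29 ± 0.75, SD, n = 2), control vehicle (8.14 ± 0.06), control E2 (7.57 ± 0.23) and 17β-HSD1 siRNA E2 (7.55 ± 0.75). Among neighbours in that order, only the arrays of control vehicle and control E2 did not overlap. With 2 arrays against 2, the share of all probe sets that do not overlap was not counted.

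STS, the sulfatase that releases estrone from estrone sulfate, had signals of 10.08 and 8.63 with control siRNA and vehicle and 9.14 and 8.17 with control siRNA and E2. With 17β-HSD1 siRNA the vehicle arrays read 9.86 and 9.42, and the E2 arrays 9.43 and 9.07. The replicate 2 array was the lower one in all 4 groups, and within each replicate number the E2 array was below its vehicle array. The 4 pair differences were -0.94, -0.46, -0.43 and -0.35. The averaged E2 change was -0.54 ± 0.29 (SE, 4 arrays against 4), or 0.687-fold (limma adjusted p = 0.715), and its 95% interval ran from -1.18 to 0.10. With the replicate number as a block the SE was 0.16 (limma unadjusted p = 0.00668, adjusted p = 0.151). Among the control siRNA arrays, leaving out vehicle replicate 1 gave -0.18, vehicle replicate 2 gave -0.91 and E2 replicate 2 gave -0.30. STS was highest in 17β-HSD1 siRNA vehicle (9.64 ± 0.31), then control vehicle (9.35 ± 1.03), 17β-HSD1 siRNA E2 (9.25 ± 0.26) and control E2 (8.66 ± 0.69; SD, n = 2 each). The arrays of all neighbouring groups overlapped.

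The other averaged E2 changes were closer to 0. For CYP1B1 the change was 0.03 ± 0.54 (SE), with an interval from -1.16 to 1.21 in this fit, which leaves the replicate number out. With the replicate number as a block the SE was 0.24 (limma adjusted p = 0.991), and the 4 pair differences were 0.33 and -0.09 with control siRNA and 0.06 and -0.18 with 17β-HSD1 siRNA. SRD5A1 changed by 0.07 ± 0.11, with an interval from -0.17 to 0.32, or 0.889- to 1.24-fold. For the near-background genes the changes were -0.10 ± 0.12 for CYP19A1, 0.08 ± 0.10 for SULT1E1, -0.13 ± 0.12 for AKR1C3 and -0.03 ± 0.11 for UGT2B28. A true change in a gene this close to background may appear smaller than it is.

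**Figure D2:**
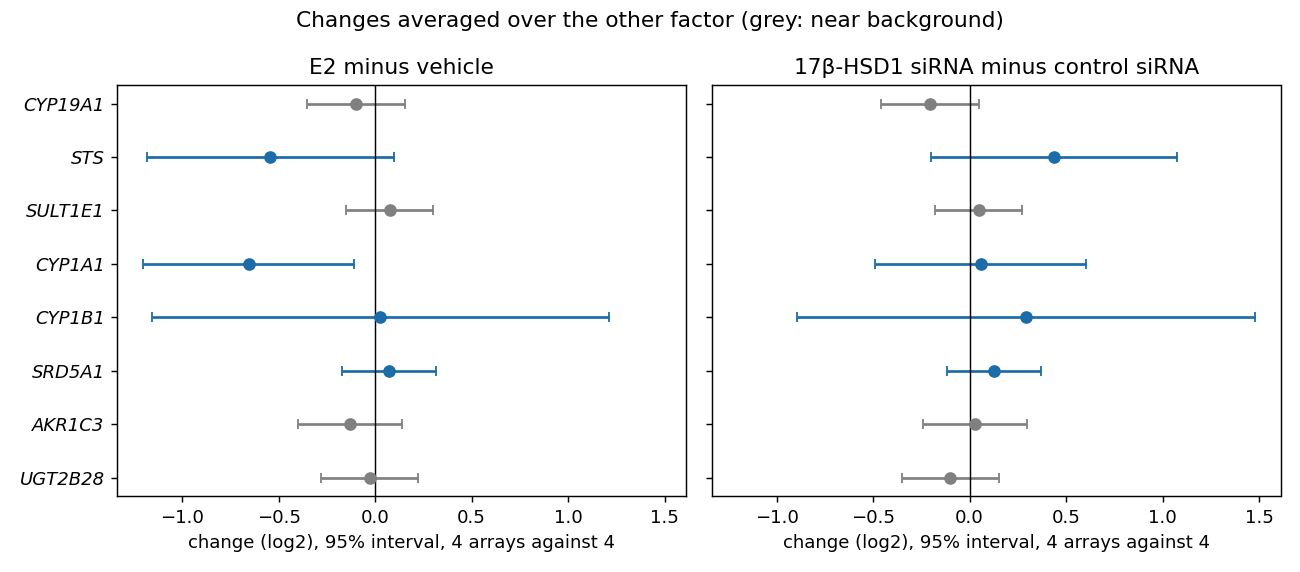
Averaged log2 changes of the 8 genes with 95% intervals that are not adjusted for multiple testing, for E2 minus vehicle (left) and 17β-HSD1 siRNA minus control siRNA (right), 4 arrays against 4, with near-background genes in grey. The fit shown leaves the replicate number out. In it CYP1A1 at -0.65 is the only point whose interval excludes 0, and CYP1B1 has the widest intervals.

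With control siRNA alone, E2 changed CYP1A1 by -0.57 ± 0.35 (SE, 2 arrays against 2), STS by -0.70 ± 0.41, CYP19A1 by -0.35 ± 0.16 and CYP1B1 by 0.12 ± 0.76. After 17β-HSD1 siRNA the changes were -0.74 ± 0.35, -0.39 ± 0.41, 0.16 ± 0.16 and -0.06 ± 0.76. None of the 8 genes was called in either setting, against 0.0848% and 0.269% of all probe sets. In the fit without the replicate number, 0 had an unadjusted limma p below 0.05, against 5.94% and 4.52%. With it as a block, the unadjusted limma p with control siRNA was 0.0116 for STS (adjusted p = 0.3205) and 0.0429 for CYP1A1 (adjusted p = 0.607). After 17β-HSD1 siRNA it was 0.0126 for CYP1A1 (adjusted p = 0.5075). The share of all probe sets with an unadjusted p below 0.05 was not counted in the block fit. The CYP1A1 difference was negative with either siRNA. After 17β-HSD1 siRNA it ranged from -1.27 (without vehicle replicate 1 of that siRNA) to -0.21 (without its vehicle replicate 2 or its E2 replicate 1). The difference between the responses was -0.17 ± 0.50 (95% interval -1.26 to 0.92). In none of the 8 genes did both same-numbered E2 pairs go one way with control siRNA and the other way after knockdown, as was so for 6.17% of all probe sets.

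Knockdown of 17β-HSD1, averaged over the media, called none of the 8 genes by limma, against 0.457% of all probe sets. In this fit, which leaves the replicate number out, 0 had an unadjusted p below 0.05, against 9.44%. No gene's 4 knockdown arrays lay all above its 4 control arrays, as was so for 2.24% of all probe sets, or all below them (2.16%). Over the 4 same-numbered pairs, 0 genes were higher in all (9.34% of all probe sets were) and 0 were lower in all (9.47%). The median change was 0.05, against 0.01 over all genes. With all 8 arrays, STS had the largest difference, 0.44 ± 0.29 (SE, 4 arrays against 4; limma adjusted p = 0.773), with an interval from -0.20 to 1.08. Without control siRNA, vehicle replicate 1 it was 0.80, without control siRNA, E2 replicate 1 it was 0.68, and without replicate 2 of these groups it was 0.0756 (vehicle) and 0.20 (E2). Within replicate 1 its mean change was 0.03, and within replicate 2 it was 0.84. With the replicate number as a block, the SE of the averaged STS change was 0.16 (limma unadjusted p = 0.0210, adjusted p = 0.296). SRD5A1 changed by 0.13 ± 0.11, CYP1A1 by 0.06 ± 0.25, SULT1E1 by 0.05 ± 0.10, AKR1C3 by 0.03 ± 0.12 and UGT2B28 by -0.10 ± 0.11.

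For SRD5A1, the steadiest of the 4 genes above the threshold, the 8 signals lay between 8.03 and 8.48. Its group means were 8.36 ± 0.18 in 17β-HSD1 siRNA E2, 8.20 ± 0.04 in 17β-HSD1 siRNA vehicle, 8.16 ± 0.09 in control vehicle and 8.14 ± 0.16 in control E2 (SD, n = 2). The arrays of the top group cleared those of the next only narrowly (lowest 8.24 against highest 8.23). They overlapped those of control E2, the lowest group, whose higher array read 8.25. The other neighbours overlapped. The 95% interval of its averaged knockdown change, -0.12 to 0.37, corresponds to 0.922- to 1.29-fold.

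CYP19A1, the aromatase gene, had signals of 5.42 and 5.25 with control siRNA and vehicle, 5.05 and 4.91 with control siRNA and E2, 4.70 and 5.04 with 17β-HSD1 siRNA and vehicle, and 5.11 and 4.95 with 17β-HSD1 siRNA and E2. Both control vehicle arrays were above the other 6, but how many of all probe sets show such an order was not counted. The knockdown difference was -0.46 ± 0.16 in vehicle (SE, 2 arrays against 2; limma adjusted p = 0.783, unadjusted p = 0.0167) and 0.05 ± 0.16 in E2 (adjusted p = 1.00). The difference between these was 0.51 ± 0.23 (limma adjusted p = 1.00, unadjusted p = 0.0485). Both same-numbered knockdown pairs were negative in vehicle and positive in E2, and opposite signs of this kind occurred in 4.87% of all probe sets. All of these signals lie below the threshold, where olfactory receptor genes also lie. Averaged over the media its change was -0.20 ± 0.12.

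Within 1 medium, and in the interaction of siRNA and medium, none of the 8 genes was called by limma, and 0% of all probe sets were called in any of these 3 contrasts. In the fit without the replicate number, CYP19A1 was the 1 gene with an unadjusted p below 0.05 in vehicle and also in the interaction. In E2, 0 genes had one. Over all probe sets 5.45% had one in vehicle, 0.66% in the interaction and 4.61% in E2. With the replicate number as a block, STS had one in E2 (limma unadjusted p = 0.0261, adjusted p = 0.631). In vehicle, knockdown changed STS by 0.28 ± 0.41 (SE), CYP1A1 by 0.14 ± 0.35 and CYP1B1 by 0.38 ± 0.76. In E2 the changes were 0.59 ± 0.41, -0.03 ± 0.35 and 0.20 ± 0.76.

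The remaining near-background genes varied little. SULT1E1 lay between 3.84 and 4.06 on the 8 arrays, AKR1C3 between 5.30 and 5.68, and UGT2B28 between 3.48 and 3.89. The means of neighbouring groups differed within the range of the arrays, except that SULT1E1 was lowest on both control vehicle arrays (3.84 each). The next lowest SULT1E1 array read 3.88, and the share of all probe sets with such an order was not counted. UGT2B28 also appears on 1 probe set that lists 6 other symbols, mainly of its close relatives, and that probe set was not used. AKR1C3 belongs to a cluster of similar genes, and AKR1C1, AKR1C2 and AKR1C4 were near background too. Their averaged knockdown changes were 0.09 ± 0.12, -0.22 ± 0.10 and 0.23 ± 0.11 (SE), with adjusted p between 0.555 and 0.935.

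CYP1B1, which makes catechol estrogens outside the liver, varied most, mainly between the replicate numbers. Within each replicate it also differed with the siRNA, in opposite directions. In replicate 1 its signal was 8.28 and 8.61 with control siRNA (vehicle, E2) and 9.42 and 9.47 with 17β-HSD1 siRNA. In replicate 2 it was 10.82 and 10.73 with control siRNA and 10.45 and 10.26 with 17β-HSD1 siRNA. Every replicate 2 array was above every replicate 1 array, a separation whose share over all probe sets was not counted. Group means ran from 9.93 ± 0.73 (17β-HSD1 siRNA vehicle) through 9.87 ± 0.56 (17β-HSD1 siRNA E2) and 9.67 ± 1.5 (control E2) to 9.55 ± 1.80 (control vehicle; SD, n = 2), and all groups overlapped.

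The difference between replicate numbers was estimated in a fit with the number as a term, which was added after seeing the data. CYP1B1 was 1.62 ± 0.24 higher in replicate 2 (SE, 4 arrays against 4), or 3.08-fold (limma adjusted p = 0.0255). This was the largest such difference, in size, of the 18417 genes. Of all probe sets 0.448% were called (0.401% with replicate 2 higher), and of the 8 genes 1. The gap was positive in 4 of 4 groups, as for 9.65% of all probe sets: 2.54 in control vehicle, 2.12 in control E2, 1.03 in 17β-HSD1 siRNA vehicle and 0.79 in 17β-HSD1 siRNA E2. The call was lost in a fit over all probe sets, named or not (adjusted p = 0.274) and after a further quantile normalization (1.55, adjusted p = 0.0688). Leaving out either array of a group drops that whole group from this estimate. The CYP1B1 difference was then 1.31 without control vehicle, 1.45 without control E2, 1.82 without 17β-HSD1 siRNA vehicle and 1.90 without 17β-HSD1 siRNA E2.

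**Figure D3:**
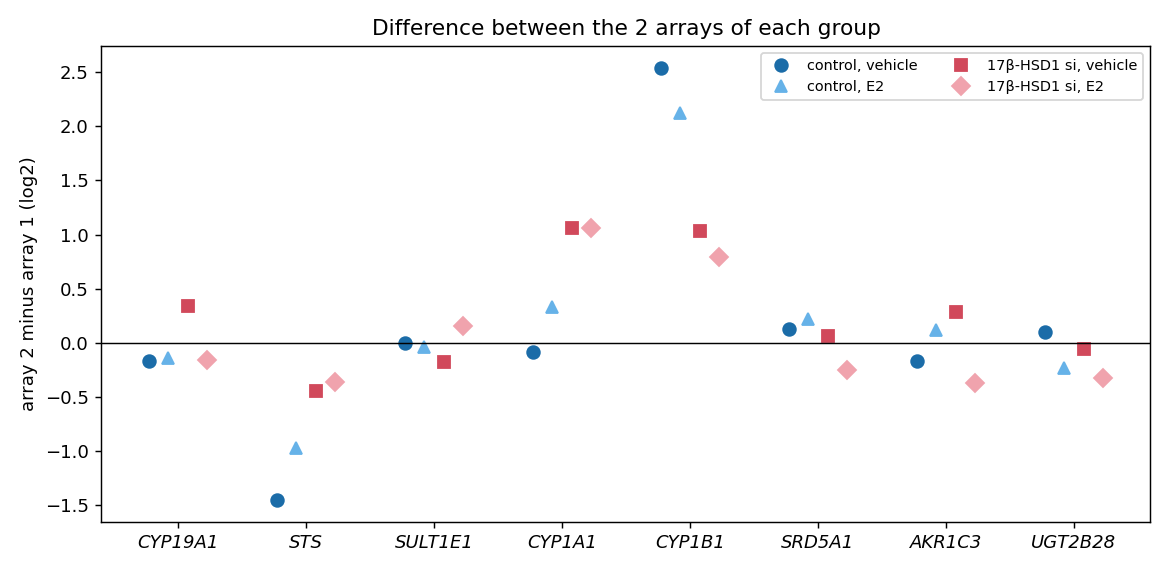
Log2 signal of replicate 2 minus replicate 1 within each of the 4 groups, for the 8 genes. CYP1B1 is positive in all groups, from 0.79 to 2.54, STS is negative in all groups, from -1.45 to -0.36, and the other genes except CYP1A1 stay within 0.37 of 0.

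STS ran the other way, with replicate 2 lower by 0.81 ± 0.16 (SE; the 46th largest difference in size of the 18417 genes). That difference missed the threshold, with a limma adjusted p of 0.0680, and was negative in 4 of 4 groups, as for 10% of all probe sets. The group gaps were -1.45, -0.97, -0.44 and -0.36. For CYP1A1 replicate 2 was 0.59 ± 0.18 higher (adjusted p = 0.218), with gaps of -0.08 and 0.33 in the control groups and 1.06 in each knockdown group. Without the control siRNA, vehicle group, which drops out when either of its arrays is left out, the CYP1A1 difference was 0.82. The replicate number accounted for 80.7% of the sum of squares of CYP1B1 over the 8 arrays, 48.1% for STS, 34% for CYP1A1 and 2.81% for SRD5A1. E2 accounted for 0.0239%, 21.7%, 41.6% and 8.55% of these.

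The knockdown differences of CYP1B1 and CYP1A1 had opposite signs in the replicates. CYP1B1 was higher with 17β-HSD1 siRNA in replicate 1 (1.14 in vehicle and 0.86 in E2) and lower in replicate 2 (-0.37 and -0.47). CYP1A1 was lower in replicate 1 (-0.43 and -0.39) and higher in replicate 2 (0.72 and 0.34). Such opposite signs were common, at 18.3% of all probe sets. For E2 they occurred in CYP1B1 and UGT2B28, and in 5.6% of all probe sets. The averaged knockdown change of CYP1B1, 0.29 ± 0.54, is therefore a mean of opposite differences.

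Other genes of the aryl hydrocarbon receptor pathway were set beside the CYP1 genes. NQO1, a quinone reductase and receptor target, was 0.52 ± 0.11 higher in replicate 2 (SE; limma adjusted p = 0.0918), in 4 of 4 groups. AHR, the receptor gene, was 0.35 ± 0.13 higher in 3 of 4 groups (adjusted p = 0.344), CYP1A2 0.20 ± 0.10 higher in 4 of 4 (adjusted p = 0.520), TIPARP 0.13 ± 0.11 and ARNT, the receptor's partner, 0.02 ± 0.10. None of these 5 passed, against 0.448% of all probe sets, and 9.65% of all probe sets were higher in 4 of 4 groups. PAPSS2, a sulfation gene outside this pathway, was higher by more, 0.78 ± 0.18 (SE, limma adjusted p = 0.110), in 4 of 4 groups. The difference of replicate numbers covers everything that differed between the 2 cultures and their handling, which cannot be told apart.

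The genes whose pattern over the 8 arrays was most like each gene's were listed as a description. With 11472 candidates and 8 arrays that share siRNA, medium and replicate number, high correlations arise readily. The highest Pearson r with CYP1B1 belonged to CEP250 (0.99), STX2 (0.99) and OGFRL1 (0.97), which differed between replicate numbers by 0.25, 0.35 and 0.60. For STS they were HOXC13 (0.99), CNP (0.97) and EFNB2 (0.96), of which the ephrin ligand gene EFNB2 was 1.10 lower in replicate 2, more than STS itself. For CYP1A1 they were ARFGAP3 (0.98), NBAS (0.97) and MTIF3 (0.97), with E2 changes between -0.19 and -0.15. For SRD5A1 they were SYMPK, MTG1 and AP2A1 (0.96 each).

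A wider list of 83 steroid pathway genes, none of them among the 9 or with an HSD17B symbol, had 68 measured members. Of these, 37 were near background. None was called by limma with E2 (1.55% of all probe sets were) or with knockdown (0.457%). In each contrast 2 of the 68 had an unadjusted p below 0.05, against 8.89% of all probe sets with E2 and 9.44% with knockdown. The list's median change was -0.04 with E2 and 0.02 with knockdown, against -0.02 and 0.01 over all genes. Of its sublists, sulfation and desulfation (12 measured) had a median E2 change of -0.17, glucuronidation (8 measured) a median knockdown change of -0.13, and all other medians lay between -0.08 and 0.07.

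In the pathway list the largest knockdown difference was that of UGDH, the enzyme that makes UDP-glucuronic acid for glucuronidation. Its signals were 8.11 and 7.89 in control vehicle, 8.08 and 8.03 in control E2, 7.07 and 7.87 in 17β-HSD1 siRNA vehicle and 7.49 and 7.62 in 17β-HSD1 siRNA E2. All 4 knockdown arrays were below all 4 control arrays, as for 2.16% of all probe sets, and UGDH was the 1 gene of the 68 with such a separation. The change was -0.51 ± 0.16 (SE, 4 arrays against 4; limma adjusted p = 0.248). It was -0.71 without 17β-HSD1 siRNA, vehicle replicate 2, which is the knockdown array nearest the control arrays. ARSA, a lysosomal sulfatase gene, changed by 0.27 ± 0.11 with knockdown (adjusted p = 0.439).

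With E2 the largest difference in the list was that of ABCC11, an efflux pump gene whose product carries steroid sulfates. Its signals were 8.48 and 8.64 in control vehicle, 9.12 and 9.43 in control E2, 8.78 and 8.55 in 17β-HSD1 siRNA vehicle and 9.07 and 8.70 in 17β-HSD1 siRNA E2. The E2 arrays were the higher ones in both siRNA groups except that 17β-HSD1 siRNA E2 replicate 2 fell below 17β-HSD1 siRNA vehicle replicate 1. The averaged change was 0.47 ± 0.13 (SE; limma adjusted p = 0.128). SLCO3A1, a transporter gene, changed by -0.40 ± 0.17 (adjusted p = 0.481).

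**Figure D4:**
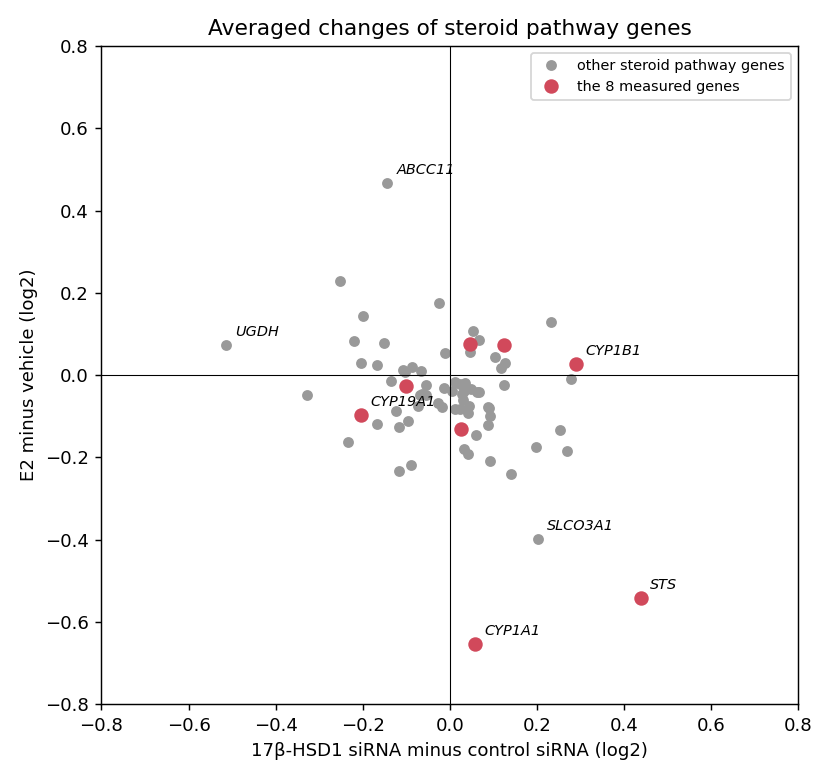
Averaged log2 change with 17β-HSD1 siRNA (x axis) against that with E2 (y axis) for the 8 genes (red) and 68 other steroid pathway genes (grey). CYP1A1 and STS are the lowest points on the E2 axis, UGDH lies farthest to the left, and no point shown passed the threshold in either contrast.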

How the data were processed

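RNA of T47D cells was hybridised to Affymetrix Human Gene 1.0 ST arrays, per the labels' protocols. The deposited values were read as log2 signal from their range (2.42 to 15.2). Their summarisation, background correction and normalization by the authors were not given in the sources used here. The values were tested as deposited. Array medians were 7.25 to 7.37.

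Gene names came from the platform's annotation table, with symbols updated by gene identifier through RefSeq. Of 33297 probe sets, 19460 had 1 symbol, 1754 several and 12083 none; the 21214 with a symbol were tested. The members and lists were chosen with earlier results of these data known.

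limma 3.58.1 in R 4.3.3 fitted 1 coefficient per group over all 8 arrays (4 residual degrees of freedom), with Benjamini-Hochberg adjustment over all tested probe sets. Calls were at an adjusted p below 0.05. The procedure was tested on simulated data. The number of arrays limits precision.

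The rule for named genes covers the members, HSD17B1, close paralogs, up to 4 pathway genes per sublist with the smallest p, and the 3 genes most correlated with each member above background; the marker genes and AHR, ARNT, NQO1 and TIPARP beside them were fixed lists. PAPSS2 was named in addition, for its difference between replicate numbers. The replicate number was taken as the culture experiment. Deviations of same-numbered arrays correlated at 0.31 to 0.44 for 4 of 6 pairs of groups, and at 0.01 and -0.20 for 2 pairs with the control vehicle group. The alternatives were filters on probe sets, quantile normalization, other models, the replicate block and leaving out each array.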

Additional observations from a re-analysis of the deposited data

Results flagged for a closer look

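Some differences ran opposite ways between parts of the design, in both same-numbered pairs of each part. Except for CYP19A1, these differences were not tested. The knockdown change of CYP1B1 had means of 1.00 in replicate 1 and -0.42 in replicate 2, a difference of -1.42. For CYP1A1 the means were -0.41 and 0.53, a difference of 0.94. Opposite signs of this kind occurred in 18.3% of all probe sets.

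The knockdown change of CYP19A1 was 0.51 higher in E2 than in vehicle (means 0.05 and -0.46), a pattern found in 4.87% of probe sets. This difference is the interaction, whose limma adjusted p was 1.00, in a gene near background.

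The E2 change of CYP1B1 had means of 0.19 in replicate 1 and -0.14 in replicate 2, a difference of -0.33. For UGT2B28, near background, the means were 0.12 and -0.18, a difference of -0.30. Opposite E2 signs occurred in 5.6% of probe sets.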

How the results depend on the processing

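None of the 8 genes was called in any of the 7 contrasts under any alternative run. The replicate block, taken as a pairing by experiment, changed no call: the smallest adjusted p with it was 0.100 for CYP1A1 in the averaged E2 contrast, where STS had 0.151. With the 2 control vehicle arrays exchanged in the numbering, an alternative added after seeing the data, the block also called 0 members in the averaged contrasts. The 4 near-background genes were the number found under each other threshold tried. The highest threshold, the 99th percentile of the olfactory receptor means, was 7.83, only just below the CYP1A1 mean of 7.89. Of 33 member changes followed over 429 settings, 397 kept their sign and 32 changed it. Many of the 397 could not change it. Settings that altered only the probe sets tested, the spread estimate or the replicate block left the size of each change identical by construction. For changes within a single medium or siRNA, leaving out an array from outside the comparison did so too. The 397 are therefore not a measure of how stable the signs were. The cause of the sign changes was not tested beyond the array left out.

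The averaged E2 change of CYP1B1 was -0.0385 after quantile normalization. Leaving out each array gave -0.61 to 0.66 for it and -0.11 to 0.0524 for UGT2B28. For averaged knockdown the ranges were -0.21 to 0.32 for CYP1A1, -0.34 to 0.93 for CYP1B1 and -0.0654 to 0.12 for AKR1C3. For knockdown in vehicle they were -0.44 to 1.01 for STS, -0.39 to 0.68 for CYP1A1 and -0.89 to 1.65 for CYP1B1. For knockdown in E2 they were -0.56 to 0.50 for CYP1A1, -0.86 to 1.26 for CYP1B1 and -0.0256 to 0.13 for CYP19A1. For E2 with control siRNA they were -1.42 to 0.0293 for STS and -1.15 to 1.39 for CYP1B1. For E2 after 17β-HSD1 siRNA they were -0.58 to 0.45 for CYP1B1 and -0.0114 to 0.33 for CYP19A1.

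In the difference between replicate numbers, 0 members were called with all probe sets and 0 after quantile normalization. Leaving out an array drops its whole group from this difference, so either array of a group gave the same result. CYP1B1 ranked 3 in size without the control siRNA, vehicle group and 1 otherwise. The pathway list had 0 to 1 calls for averaged knockdown with arrays left out, the 1 being UGDH.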
